A study of Mus musculus with 10 samples.

Results

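The choroid plexus is a fold of secretory epithelium on vessel-rich stroma that hangs into each brain ventricle, next to the hippocampus in the lateral ventricle. Its epithelial cells make cerebrospinal fluid by moving salt and water across tight junctions, and they secrete carrier proteins and growth factors into that fluid. Ttr, which encodes the thyroid hormone and retinol carrier transthyretin, is its best known transcript, and Otx2 is a homeobox transcription factor that the tissue needs to form and to persist. The genes described here are 31 genes known for expression in this epithelium. They were chosen as a list of names, with earlier results of these data known. Genes of motile cilia were left out because ependymal cells share them. A probe was taken as a member's when its RefSeq accession belonged to that gene, and the brightest kept probe stood for the gene. Of the 31 genes, 30 had a probe and 28 were measured, out of 23574 features tested. Mfrp was not matched to a probe and is not analysed here.

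RNA from hippocampus of 10 adult mice was hybridised to 2-colour Agilent arrays, 1 mouse to an array. The 5 DLK conditional knockout mice (cKO) lost dual leucine zipper kinase, encoded by Map3k12, on a tamoxifen diet, and the 5 DLK wild-type mice (WT) ate the same diet, for 3 weeks in both. The series asked which hippocampal transcripts differ between them. The sources used here do not state the recombinase or the cells that express it, the deleted exons, the mice's sex or their exact age. Hippocampal RNA was labelled with Cy5 and a common commercial reference RNA with Cy3 on every array, without dye swap. Values are log2 ratios of hippocampus over reference, and differences are cKO minus WT.

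Median Cy5 signals per array lay between 146 and 202, over backgrounds of 29 to 31, and 69.6% to 76.1% of probes were well above background. Map3k12 averaged 0.51 ± 0.24 in cKO and 1.93 ± 0.19 in WT (SD, n = 5 each), a difference of −1.41 (SE 0.12, limma adjusted p = 0.000975), and it was the 1 feature of 23574 that passed an adjusted p of 0.05. The mean of 10 genes of hippocampal principal neurons was 2.87 ± 0.16 in cKO and 2.88 ± 0.14 in WT (SD, n = 5 each). In RNA of whole tissue, more cells of a type and more RNA per cell cannot be told apart.

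Choroid plexus genes were higher on average in cKO hippocampus, and their spread between mice was large. All 28 measured members had a higher mean in cKO, where 54.8% of all features did. Their median difference was 0.48, against 0.01 over all features. No member passed the limma test adjusted over all features (lowest adjusted p = 0.99995), where 0.00424% of features passed. At an unadjusted p under 0.05, 17 of 28 members were higher in cKO and 0 were lower, against backgrounds of 2.83% and 1.03%. The 5 cKO mice were all above the 5 WT mice for 6 of 28 members, against 0.525% of features. These 6 were Ttr, Kcnj13, F5, Wfdc2, Trpv4 and Igfbp2. Because the list was chosen with earlier results of these data known, these counts describe it and are not independent support. Only 1 of 3 slides held both genotypes, with cKO mouse 2 and WT mice 1, 2 and 4. Within that slide 26 of 28 members were higher in cKO and the median difference was 0.61, resting on that 1 cKO mouse.

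Promoters of 4 members are shown because they span the range of responses: Kcnj13 and F5 followed Ttr closely over mice, Otx2 is the transcription factor that the tissue needs, and Ace hardly differed. Each is 250 bases before to 50 after an annotated start, 5′ to 3′ on the strand of the gene, from RefSeq on build GRCm38.p6. The windows are chr1:87394680-87394979 (minus strand) for Kcnj13, chr1:164151585-164151884 (plus strand) for F5, chr14:48665060-48665359 (minus strand) for 1 of the 4 Otx2 starts and chr11:105967698-105967997 (plus strand) for 1 of the 2 Ace starts. Capitals mark TAATCC, the site read by homeobox factors of the Otx type, or TAATTA, a general homeobox site, on either strand.
Kcnj13: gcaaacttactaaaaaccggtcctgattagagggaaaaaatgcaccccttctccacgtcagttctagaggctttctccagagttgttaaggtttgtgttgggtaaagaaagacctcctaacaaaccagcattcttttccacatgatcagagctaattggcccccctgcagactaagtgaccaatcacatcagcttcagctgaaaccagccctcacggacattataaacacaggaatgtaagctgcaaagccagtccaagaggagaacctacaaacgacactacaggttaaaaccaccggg
F5: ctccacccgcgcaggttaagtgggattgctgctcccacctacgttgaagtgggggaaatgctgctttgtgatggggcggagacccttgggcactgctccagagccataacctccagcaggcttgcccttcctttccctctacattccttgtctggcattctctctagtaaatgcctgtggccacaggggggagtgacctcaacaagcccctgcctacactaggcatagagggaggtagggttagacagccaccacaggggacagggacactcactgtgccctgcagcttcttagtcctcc
Otx2: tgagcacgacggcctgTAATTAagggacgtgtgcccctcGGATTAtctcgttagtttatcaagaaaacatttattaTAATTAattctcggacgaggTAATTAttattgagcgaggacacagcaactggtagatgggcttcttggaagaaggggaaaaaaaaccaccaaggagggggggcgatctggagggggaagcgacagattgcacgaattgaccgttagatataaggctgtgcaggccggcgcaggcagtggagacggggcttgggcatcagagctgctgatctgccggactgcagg
Ace: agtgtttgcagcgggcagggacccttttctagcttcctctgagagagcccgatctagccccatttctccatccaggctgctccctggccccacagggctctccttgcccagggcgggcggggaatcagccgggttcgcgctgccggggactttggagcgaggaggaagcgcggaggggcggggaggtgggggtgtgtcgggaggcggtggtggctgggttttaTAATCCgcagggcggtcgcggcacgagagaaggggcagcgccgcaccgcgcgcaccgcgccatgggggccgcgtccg
Of the 31 members, 26 had an entry, with 40 promoters. TAATCC, or GGATTA on the other strand, was found in 4 of these 40, or 10%, against 7.06% of all 32851 promoters. TAATTA, which reads alike on both strands, was in 4 of 40, against 5.29% of all. The forkhead site TGTTTAC, or GTAAACA, was in 1 of 40, a promoter of Prlr, against 3.65%. The Otx2 window shown held 1 TAATCC and 3 TAATTA, and the Ace window held 1 TAATCC at position −27 from the start. The other Otx2 windows held 1 TAATTA or no match, and the other Ace window held no match. In 1 of the Igf2 promoters a TAATCC and a TAATTA overlap. The windows of Kcnj13 and F5 held none of these letters, which says nothing of the factors themselves. Ttr, Sostdc1, Clic6, Col9a3 and Folr1 are named only.

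**Figure D1:**
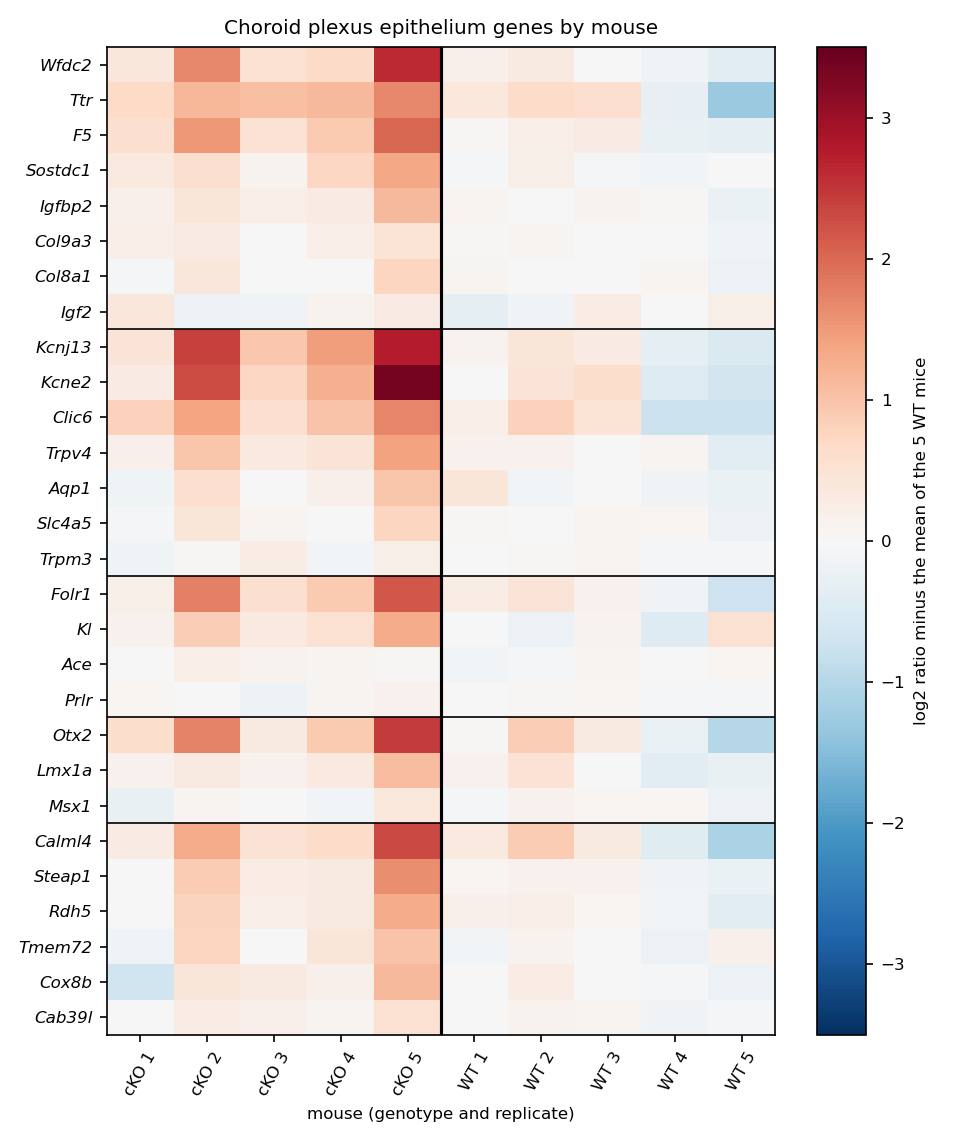
Log2 ratio of each of the 28 measured members (rows, grouped by role from secreted proteins at the top to other membrane and intracellular proteins at the bottom) in each of 10 mice (columns, cKO left of the line), minus the mean of the 5 WT mice. cKO mouse 5 was the highest of the 10 mice for 25 of 28 members, and WT mouse 5 the lowest for 17.

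Among the 8 secreted and matrix proteins, all were higher in cKO by the mean (54.8% of features), with a median difference of 0.54. Of these 8, 6 had an unadjusted p under 0.05 (2.83% of features were higher at that level). Ttr, on chromosome 18, had log2 ratios of 4.98, 5.43, 5.33, 5.43 and 5.96 in cKO mice 1 to 5, against 4.64, 4.92, 4.86, 4.0 and 2.99 in WT mice 1 to 5. The genotypes did not overlap, but cKO mouse 1 and WT mouse 2 lay almost together, and WT mice 4 and 5 were far below the rest. Its difference was 1.15 (SE 0.32, 95% interval 0.45 to 1.84). F5, which encodes coagulation factor V, had ratios of 0.90, 1.85, 0.84, 1.28 and 2.34 in cKO mice 1 to 5. The WT mice had 0.39, 0.58, 0.63, 0.10 and 0.04. Here too the groups were apart, cKO mice 2 and 5 stood highest, and WT mice 4 and 5 lowest. The difference was 1.1 (SE 0.26), and 2.08 with plain background subtraction.

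Wfdc2, a secreted protein with protease inhibitor domains, had ratios of 0.88, 2.15, 1.01, 1.16 and 3.08 in cKO, against 0.64, 0.80, 0.50, 0.32 and 0.12 in WT mice 1 to 5. cKO mouse 5 stood well above every other mouse, and the genotypes did not overlap. The difference was 1.18 (SE 0.36). A dimmer Wfdc2 probe was well above background on 4 cKO arrays and on 0 WT arrays. Sostdc1, a secreted antagonist of BMP and Wnt signalling, had 1.85, 2.08, 1.63, 2.24 and 2.87 in cKO, against 1.44, 1.71, 1.47, 1.41 and 1.53 in WT. The WT mice were close together, and cKO mouse 3 fell inside their range. Its difference was 0.62 (SE 0.18), and 0.29 with processed signals.

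The remaining secreted and matrix members differed less. Igfbp2, a carrier of insulin-like growth factors, differed by 0.45 (SE 0.16) with no overlap, and a second probe gave 0.47. Without cKO mouse 5 it differed by 0.28. The collagen chains Col9a3 and Col8a1 differed by 0.25 (SE 0.08) and 0.22 (SE 0.14). With plain background subtraction Col9a3 differed by 0.70, and without cKO mouse 5 Col8a1 differed by 0.09. Igf2, the growth factor that Igfbp2 binds, differed by 0.09 (SE 0.13), and its probe was well above background on only 3 cKO and 4 WT arrays. Igf2 was highest in cKO mouse 1, at 0.65, and lowest in WT mouse 1, at −0.05, an order unlike that of Ttr.

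Channels and transporters had the largest median difference of the roles, 0.67. All 7 were higher in cKO (54.8% of features) and 4 had an unadjusted p under 0.05 (2.83%). Kcnj13, the inward rectifier potassium channel Kir7.1 of the apical membrane, had ratios of 1.27, 3.18, 1.75, 2.25 and 3.56 in cKO mice 1 to 5, against 0.94, 1.21, 1.09, 0.48 and 0.28 in WT mice 1 to 5. cKO mouse 1 was barely above WT mouse 2, while cKO mice 2 and 5 lay far above all WT mice. The difference, 1.6 (SE 0.38, 95% interval 0.78 to 2.42), was 3.03-fold, and a second Kcnj13 probe gave 1.64. Clic6, a chloride intracellular channel protein, had 2.94, 3.5, 2.72, 3.13 and 3.82 in cKO, against 2.35, 2.93, 2.59, 1.37 and 1.37 in WT. cKO mouse 3 lay below WT mouse 2, and WT mice 4 and 5 stood apart at the low end. Its difference was 1.1 (SE 0.31), 0.56 with plain background subtraction and −0.21 with the scanner software's processed signals.

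Trpv4, a calcium-permeable channel that responds to osmotic change, had −1.06, −0.26, −0.88, −0.77 and 0.17 in cKO, against −1.07, −1.07, −1.23, −1.14 and −1.62 in WT. cKO mouse 1 lay just above the highest WT mouse, and the other cKO mice were well above it. Its difference was 0.67 (SE 0.21), and a second probe gave 0.14. Kcne2, the beta subunit of potassium channels, is named here after its values were seen. It had the widest range of all members: 1.32, 3.34, 1.77, 2.29 and 4.39 in cKO, against 1.06, 1.51, 1.66, 0.59 and 0.41 in WT. That is a 15.8-fold span between the highest and the lowest mouse, and the genotypes overlapped at cKO mouse 1.

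Other channels and transporters differed little. The water channel gene Aqp1 differed by 0.32 (SE 0.19) and the bicarbonate cotransporter gene Slc4a5 by 0.24 (SE 0.14), or by 0.16 and 0.11 without cKO mouse 5. Trpm3, a cation channel gene, had 0.74, 0.93, 1.13, 0.79 and 1.07 in cKO, against 0.87, 0.91, 0.97, 0.84 and 0.81 in WT. cKO mouse 1 was the lowest of the 10 and cKO mouse 3 the highest, so the WT range lay inside that of cKO. The difference was 0.05 (SE 0.08, 95% interval −0.12 to 0.22).

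Of the receptors and surface enzymes, 4 of 4 measured were higher in cKO (54.8% of features) and 2 had an unadjusted p under 0.05 (2.83%). Folr1, the folate receptor that the epithelium uses to carry folate into cerebrospinal fluid, had −0.20, 1.34, 0.14, 0.51 and 1.77 in cKO, against −0.16, 0.04, −0.26, −0.55 and −1.14 in WT. cKO mouse 1 lay inside the WT range, and the other cKO mice were above it. The difference was 1.12 (SE 0.34). A second, dimmer Folr1 probe gave 0.19, so the size rests on which probe stands for the gene.

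Kl, which encodes klotho, a membrane partner of the FGF23 receptor, is described after its values were seen. Its ratios were 2.40, 3.10, 2.57, 2.76 and 3.54 in cKO, against 2.24, 2.04, 2.37, 1.78 and 2.77 in WT. In WT mouse 5 Kl was the highest of the WT mice, although Ttr was the lowest there. The difference was 0.63 (SE 0.21). Ace, the angiotensin-converting enzyme, differed by 0.10 (SE 0.06).

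The prolactin receptor gene Prlr depended on the probe. Its brighter probe gave 0.17, 0.07, −0.07, 0.19 and 0.25 in cKO, against 0.08, 0.13, 0.16, 0.04 and 0.06 in WT, a difference of 0.03 (SE 0.07). The WT range lay inside that of cKO. The other probe, matched to the same RefSeq transcript, gave 1.85, 2.89, 2.12, 2.33 and 3.69 in cKO, against 1.47, 1.83, 1.91, 1.55 and 1.93 in WT. It ranked as dimmer on the mean of both channels. Its Cy3 signal was 41 to 53, where the first probe had 99.5 to 252. Its Cy5 signal was 299 to 769 in cKO, where the first probe had 108.5 to 294. In WT the Cy5 signals were 205 to 335 and 276 to 346. On the other probe cKO mice 2 and 5 stood highest, as they did for Kcnj13, and the difference was 0.84 (SE 0.28, limma adjusted p = 0.99995 over 28682 probes). Its unadjusted p was 0.00991, and 2.78% of kept probes were higher in cKO at an unadjusted p under 0.05.

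The 3 transcription factors did not move alike. Otx2 had ratios of 2.06, 3.16, 1.74, 2.35 and 3.88 in cKO, against 1.49, 2.31, 1.74, 1.19 and 0.44 in WT. cKO mice 1 and 3 lay inside the WT range, cKO mouse 5 was the highest and WT mouse 5 the lowest. The difference was 1.20 (SE 0.40, 95% interval 0.33 to 2.08), the third largest of the 28. Lmx1a, a LIM homeobox factor of the roof plate from which choroid plexus arises, had 0.57, 0.75, 0.57, 0.75 and 1.5 in cKO, against 0.58, 0.92, 0.41, 0.04 and 0.17 in WT. Only cKO mouse 5 was above all WT mice. The difference was 0.40 (SE 0.19), 0.24 without that mouse, 1.32 with plain background subtraction and 1.24 with processed signals. Msx1, a homeobox factor of the same roof plate, had −0.05, 0.29, 0.19, 0.11 and 0.58 in cKO, against 0.15, 0.34, 0.27, 0.26 and −0.01 in WT. The genotypes overlapped, again with cKO mouse 5 alone above WT, and the difference was 0.02 (SE 0.11, 95% interval −0.21 to 0.26).

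The 2 claudin genes of the tight junctions gave no level. The Cldn1 probe was well above background on 0 of 10 arrays. Cldn2 passed on 2 cKO arrays and 0 WT arrays with 1 of its 2 probes. The passing arrays were those of cKO mice 2 and 5, at Cy5 signals of 73 and 63, where the other 8 arrays had 39 to 59.

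All 6 intracellular and other membrane members were higher in cKO (54.8% of features), with a median difference of 0.46. Of these 6, 4 had an unadjusted p under 0.05 (2.83%). Calml4, a calmodulin-like protein gene, had the largest difference among them, 1.01 (SE 0.41), and ran over a 10.8-fold range. Steap1, a metalloreductase gene, differed by 0.62 (SE 0.25), Rdh5, a retinol dehydrogenase gene, by 0.52 (SE 0.21), Tmem72 by 0.40 (SE 0.19) and Cab39l by 0.21 (SE 0.09). Without cKO mouse 5 these differences were 0.37 for Steap1, 0.32 for Rdh5, 0.26 for Tmem72 and 0.13 for Cab39l, and with processed signals Tmem72 differed by 1.05. Cox8b, a subunit of cytochrome c oxidase described after its values were seen, differed by 0.27 (SE 0.25), by 0.06 without cKO mouse 5 and by 0.52 without cKO mouse 1. On the array of cKO mouse 1 the Cox8b spot had a Cy3 signal of 177.5, against 47 to 76 on the other 9, and its log ratio of 0.59 was the lowest of all mice although its Cy5 signal of 333.5 was the second highest.

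**Figure D2:**
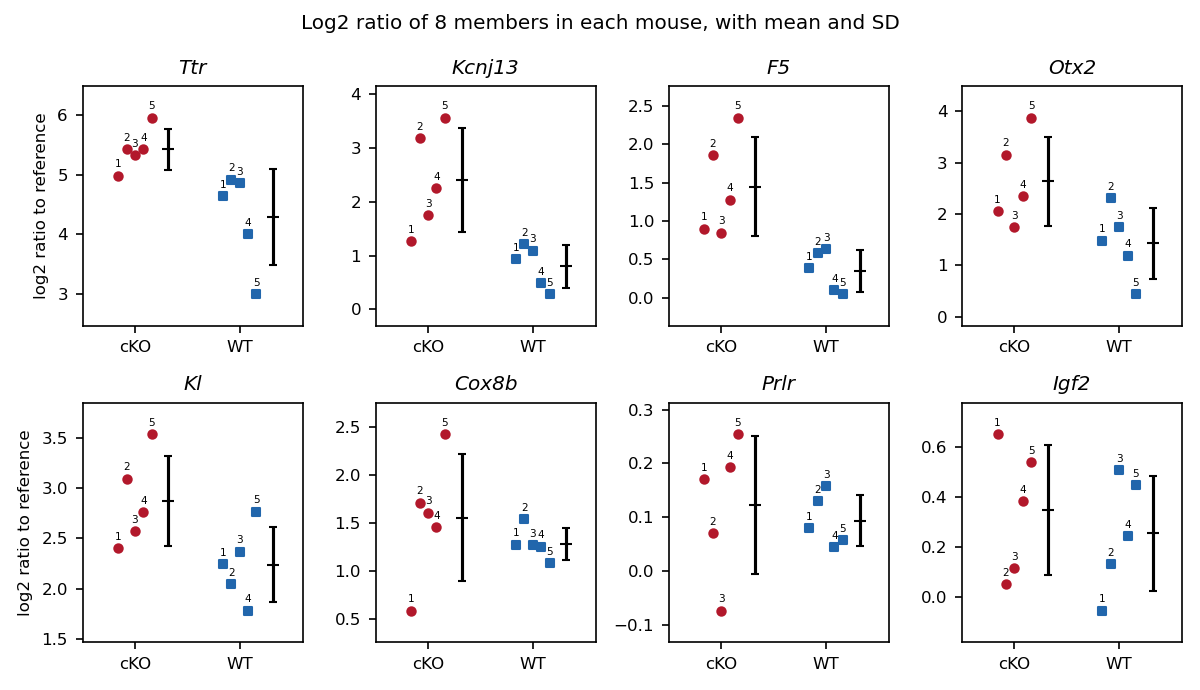
Log2 ratio to the reference RNA (vertical axis, own scale in each panel) of 8 members in cKO mice (left, circles) and WT mice (right, squares), numbered by replicate, with mean and SD (n = 5 each). Ttr, Kcnj13 and F5 do not overlap between genotypes, Kl is high in WT mouse 5, Cox8b is low in cKO mouse 1, and Prlr (brighter probe) and Igf2 overlap.

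At the Ttr spot the Cy3 reading moved with the Cy5 reading, although every array carried the same reference RNA, and the cause was not tested. Cy5 signals were 5573, 38270, 9027, 16390 and 61416 in cKO mice 1 to 5, against 3396, 6500, 4528, 1661 and 865.5 in WT mice 1 to 5. The Cy3 signals of the same spot were 127.5, 701, 169.5, 270 and 1083 on cKO arrays, against 98, 142, 118, 63 and 55 on WT arrays. Both channels gave the same order of mice. Background-subtracted Cy3 was 1.41% to 2.93% of Cy5 on all 10 arrays. Both ends of that range came from dim Cy3 readings, 23 in WT mouse 4 and 24.5 in WT mouse 5 after background subtraction. The Ttr spot was well above background in Cy3 on 9 of 10 arrays. Among probes above 10000 in Cy5 the lowest 1% of spots had shares at or below 0.32% to 0.48% depending on the array. Ttr itself was below 10000 in cKO mice 1 and 3 and in all WT mice, so these probes are not a matched comparison. Neither channel was saturated. Between the highest and the lowest mouse Ttr spanned 71.0-fold in Cy5, 19.7-fold in Cy3 and 7.82-fold in the normalised ratio. At the Clic6 spot Cy3 also moved with Cy5. Its Cy3 signals were 128 and 162 in cKO mice 2 and 5, against 44.5 and 45.5 in WT mice 4 and 5. The Cy5 signals of that spot were 2059 and 2266, against 209.5 and 194.5.

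**Figure D3:**
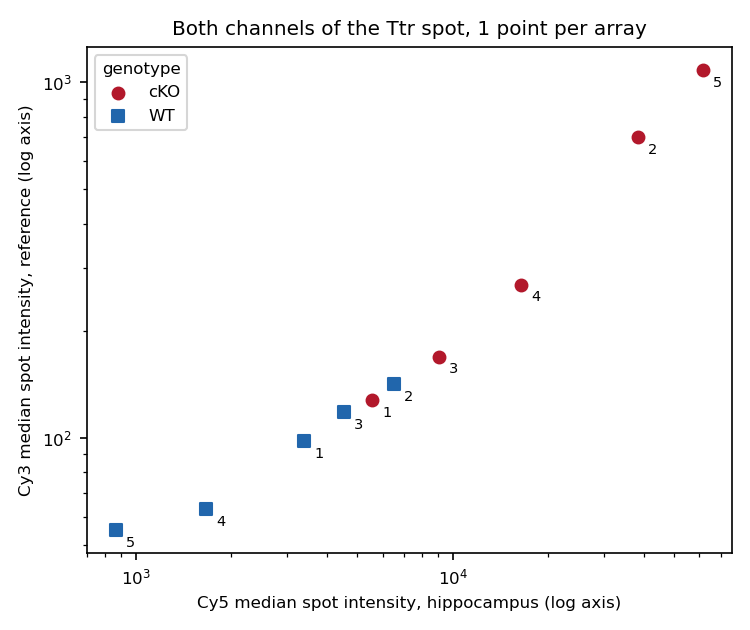
Cy5 signal of hippocampal RNA (horizontal, log axis) against Cy3 signal of the common reference RNA (vertical, log axis) at the Ttr spot, 1 point per array, cKO as circles and WT as squares, numbered by replicate. Cy3 is 1083 in cKO mouse 5 and 55 in WT mouse 5, and the mice stand in the same order as in Cy5.

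For Ttr the size of the genotype difference depended on the scale and on the signal processing. It was 1.15 as the log ratio, 2.77 (SE 0.75) in the Cy5 channel alone after quantile normalisation, 0.32 with plain background subtraction and 0.14 with the scanner software's processed signals. For the members as a group the scale mattered less. In Cy5 alone 25 of 28 members were higher in cKO (47.3% of features), the median difference was 0.49, and 16 had an unadjusted p under 0.05 in that direction (1.45%). All 5 cKO mice were above all 5 WT mice for F5, Steap1 and Col9a3 in Cy5 alone, or 3 of 28 (0.213%), and neither a member nor any other feature passed the adjusted limma test (0% of features). Prlr, Ace and Msx1 were lower in cKO on that scale, at −0.39, −0.17 and −0.12.

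**Figure D4:**
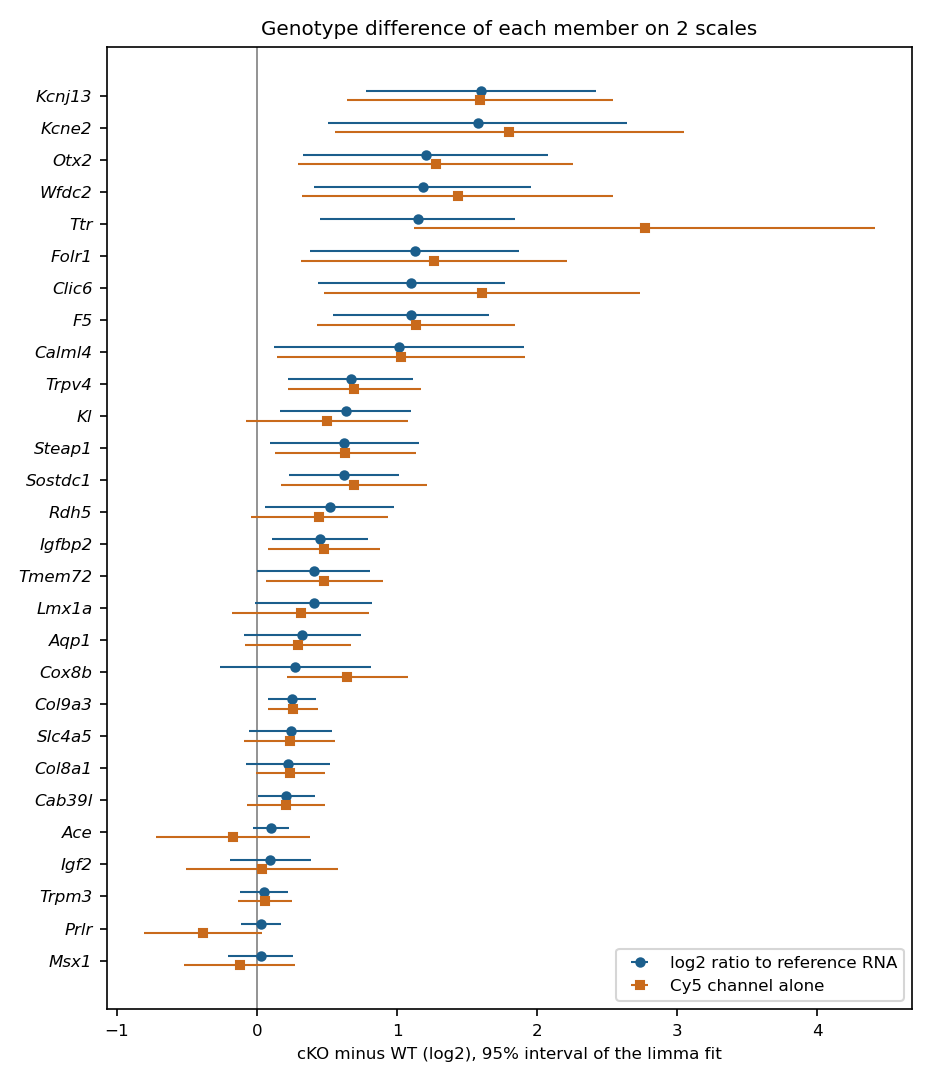
Difference between cKO and WT (horizontal, log2) of each measured member with the 95% interval of the limma fit (n = 5 each), for the log2 ratio to the reference (circles) and the Cy5 channel alone (squares). Ttr moves from 1.15 to 2.77 between the scales, and Prlr, Ace and Msx1 fall to the left of 0 in Cy5 alone.

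Mice kept much the same order from gene to gene. cKO mouse 5 was the highest of the 10 for 25 of 28 members, where it was the highest for 20.7% of features, and WT mouse 5 was the lowest for 17 of 28, against 20.1%. cKO mouse 2 was among the top 3 mice for 24 members and cKO mouse 4 for 18, without a count over all features. With rank 1 for the highest mouse, cKO mouse 1 had a mean rank of 6.5, close to 6.89 for WT mouse 1, and WT mouse 2 ranked higher at 5.68. Averaged over the 28 members, cKO mice 1 to 5 had log2 ratios of 0.30, 0.97, 0.43, 0.62 and 1.46, and WT mice 1 to 5 had 0.22, 0.38, 0.29, −0.01 and −0.17. cKO mouse 1 was inside the WT range and the other 4 cKO mice were above it. Within slide 1, which held only cKO mice, the average went from 0.30 to 1.46, so the members also varied between arrays of the same slide. The array of cKO mouse 5 had the lowest median Cy5 signal of the 10, 146, and that of WT mouse 5 the highest, 202. The part of this in the order of mice was not tested.

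The within-genotype SD had a median of 0.38 over members and 0.12 over all features, and 19 of 28 members lay above the 95th percentile of features. It was the larger in cKO for 26 of 28 members, with medians of 0.45 in cKO and 0.23 in WT. Over all features these medians were 0.12 and 0.11, and the share with the larger SD in cKO was not counted. Between the highest and the lowest of the 10 mice the median member spanned 2.97-fold, against 1.29-fold for the median feature. Leaving out cKO mouse 5 moved the members' median difference to 0.30 and left 26 of 28 higher.

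Ttr and most other members varied together across mice. Pearson correlations with Ttr over 10 mice were above 0 for 26 of 27 other members, against 54.3% of features, with a median r of 0.78 against 0.05. Other lists also varied with Ttr: the median r was 0.78 over 10 oligodendrocyte genes, 0.65 over the 27 further choroid plexus genes, 0.59 over 10 endothelial genes and −0.24 over 10 genes of hippocampal neurons. At an unadjusted permutation p under 0.05, 18 of 27 members were positive, as were 7 of 10 oligodendrocyte genes, against 5.43% of features. After adjustment over 23439 features no member passed, and 0% of features did, with a lowest adjusted p of 0.20. The highest member was Clic6 (r = 0.93, permutation p = 5e-05, adjusted p = 0.201, Spearman rho = 0.96, p = 5e-05, adjusted p = 0.146). At both the Ttr and the Clic6 spot Cy3 moved with Cy5, and the part of this in their correlation was not tested. Kcnj13 gave the same rank order of the 10 mice as Ttr (rho = 1.0, permutation p = 2e-05, adjusted p = 0.117), with r = 0.85 (permutation p = 0.00221, adjusted p = 0.373). The median rho was 0.85 over members and 0.04 over all features. Of the members 10 of 27 had a rho above 0.9, without a count over all features. Igf2 had r = −0.02 (permutation p = 0.963) and rho = 0.08 (permutation p = 0.841).

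Genotype enters these correlations, so they were recomputed after subtracting each genotype's mean. The median r with Ttr was then 0.61, 24 of 27 members were above 0 (51.7% of features), and 21 had an unadjusted permutation p under 0.05 (9.86%). The 10 oligodendrocyte genes came near the members' median, at 0.57, with 9 above 0 and 3 at an unadjusted permutation p under 0.05. The 27 further choroid plexus genes had a median of 0.44. No feature passed after adjustment, the lowest being 0.233. After slide means were subtracted the members' median was 0.68, and that of the oligodendrocyte genes 0.57. Without cKO mouse 5 and WT mouse 5, the 2 mice farthest from the median of Ttr, these medians were 0.73 and 0.39 over 8 mice. Single members changed more: Kl went from r = 0.46 over all mice to 0.89 without those 2 mice, and Msx1 from 0.54 to −0.13.

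The scale mattered here as well. With Cy5 alone the median r with Ttr was 0.90, and 11 features, or 0.0469%, passed the adjusted permutation test. Of these, 6 were members, namely Kcnj13, F5, Folr1, Kcne2, Steap1 and Wfdc2 (permutation, adjusted p = 0.0426). With Kcnj13 in place of Ttr on the ratio scale, 10 features passed and 6 of them were members. With processed signals the median r with Ttr was 0.41.

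Between members, the median Pearson r over all 378 pairs was 0.75 after genotype means were subtracted, against 0.01 over all pairs of features. Of the member pairs 41.8% had an r above 0.8, against 2.60% of all pairs. These points share arrays and loess fits, and the values are descriptions without a test. Rdh5 had the highest median r with the other members, 0.91, followed by Trpv4, Wfdc2 and Steap1. Msx1, which hardly differed between genotypes, still followed the others with a median of 0.85. Ttr itself, at 0.61, was among the lower ones, and Ace (−0.01) and Igf2 (−0.11) did not follow. Without cKO mouse 5 the median over pairs was 0.59.

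**Figure D5:**
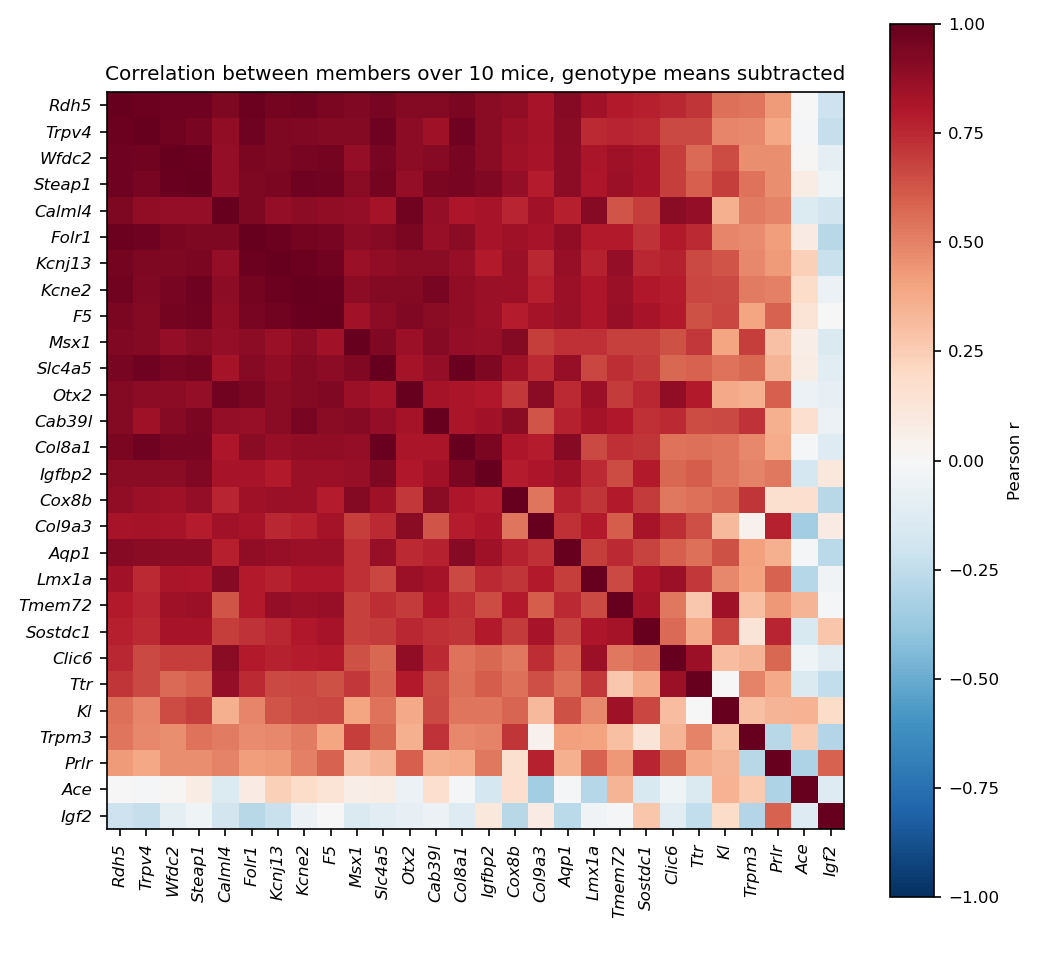
Pearson r between each pair of the 28 measured members over 10 mice after genotype means were subtracted (colour, from −1 to 1), ordered by median r with the other members. Most rows are strongly positive, led by Rdh5 at 0.91, while Ace and Igf2 at the end are near 0.

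A further list of 29 genes expressed in choroid plexus, not all of them restricted to it, had 27 measured. Of these 24 were higher in cKO (54.8% of features), 10 had an unadjusted p under 0.05 in that direction (2.83%), and the median difference was 0.17. Enpp2, which encodes the secreted lysophospholipase autotaxin, had 1.86, 3.13, 1.91, 2.30 and 3.55 in cKO, against 1.73, 1.82, 1.57, 1.67 and 1.1 in WT. It showed cKO mice 2 and 5 at the top and WT mouse 5 at the bottom, without overlap, and differed by 0.97 (SE 0.30). The sulfate transporter gene Slc13a4 differed by 0.75 (SE 0.22) and the sodium-potassium-chloride cotransporter gene Slc12a2 by 0.38 (SE 0.10). The mean of the 27 genes ranged from 0.77 to 1.23 in cKO and from 0.57 to 0.74 in WT.

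Markers of other cells are given beside these values, and their part in the result was not tested. Oligodendrocyte genes were higher in cKO for 8 of 10 (54.8% of features), with a median difference of 0.26, and 6 had an unadjusted p under 0.05 (2.83%). Their mean ranged from 3.59 to 3.83 in cKO and from 3.22 to 3.65 in WT, lowest in WT mouse 5. Mag differed by 0.51 (SE 0.13) and Cldn11 by 0.56 (SE 0.15). Motile cilia genes of ependyma were higher for 15 of 22 (54.8% of features), with a median of 0.06. At an unadjusted p under 0.05, 2 were higher (2.83%), Ccdc113 at 0.25 (SE 0.10) and Dnaic2 at 0.21 (SE 0.09). Dnali1 differed by 0.39 (SE 0.19). Their mean ranged from 1.13 to 1.47 in cKO and from 1.03 to 1.34 in WT.

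Genes of meninges and fibroblasts were higher in cKO for 7 of 12, near the 54.8% of all features, with a median of 0.04. At an unadjusted p under 0.05, 3 were higher (2.83% of features), Col1a1 at 0.24, Foxc1 at 0.18 and Aldh1a2 at 0.28. Their mean ranged from −2.27 to −2.02 in cKO and from −2.31 to −2.13 in WT. Endothelial genes were higher for 8 of 10 (54.8% of features), with a median of 0.11 and 4 at an unadjusted p under 0.05 (2.83%). Emcn, Esam and Cldn5 differed by 0.21, 0.23 and 0.21, and the list's mean ranged from 1.94 to 2.11 in cKO and from 1.80 to 1.97 in WT. Of 8 measured genes of thalamus and habenula, 7 were higher (54.8% of features), with a median of 0.15. In this list 2 had an unadjusted p under 0.05 (2.83%), Zic1 at 0.64 (SE 0.14) and Tnnt1 at 0.40 (SE 0.18). Lef1 differed by 0.15. The mean of this list ranged from 0.27 to 0.61 in cKO and from 0.09 to 0.32 in WT, and it was highest in cKO mouse 1, where the choroid plexus genes were low. None of these genes passed after adjustment (limma adjusted p = 0.99995).

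Outside these lists, the 10 genes most like Ttr over the 10 mice were Elovl1, Il1rap, Abhd6, Serpind1, Insc, Frmd8, Lims2, Efhd1, Gsn and Crybg3. Pearson r with Ttr ran from 0.96 for Elovl1 down to 0.93 for Crybg3, none passing after adjustment (lowest permutation adjusted p = 0.201). Elovl1, a fatty acid elongase gene, averaged −1.19 in cKO and −1.45 in WT, a difference of 0.27, and Gsn, which encodes the actin-severing protein gelsolin, averaged −1.08 in cKO and −1.52 in WT. Abhd6, a lipid hydrolase gene, differed by 0.13.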

How the data were processed

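The deposited scanner files hold spot intensity values for both channels, made by the authors with Agilent Feature Extraction 11.0.1.1 per the file headers. Beside them the authors deposited processed intensities with a log10 ratio of Cy5 over Cy3, and the authors' deposited value table holds log2 ratios per probe. These were used as alternatives. The submitters' processing notes name limma, with no settings.

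Median spot intensities were corrected with normexp (offset 50) after spots marked as non-uniform were removed, then normalised by loess within each array, in limma 3.58.1 under R 4.3.3. Probes well above background in Cy5 on at least 5 of 10 arrays were kept, 28682 of 39429. The offset pulls ratios of dim spots towards 0. Probes were named by RefSeq accession through a table of assembly GRCm38.p6 (67.4% named), because the array headers name another build. The brightest kept probe, by mean log intensity of both channels, stood for a gene.

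The 2 genotypes were compared by limma (lmFit, eBayes; two-sided), and p-values were adjusted over 23574 features by the Benjamini-Hochberg method. Correlations used 100000 permutations, or 14400 exact permutations within genotypes, over 23439 features complete on all arrays, with scipy 1.17.1 and numpy 2.4.6 in Python 3.11.15. Of the values, 135 in 134 features were missing and the fit used the remaining mice. Both steps were tested on simulated data. Replicate numbers were not treated as pairs in the main fit. Correlations of same-numbered deviations from genotype means ran from −0.56 to 0.16, which cannot exclude shared litters or batches. The labels number the mice but name no litters, and the p-values take the mice as independent.

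The members and lists were chosen with earlier results of these data known. Full values by mouse were given for Ttr, the 8 members of smallest p, the transcription factors and the 3 members of smallest difference. The 3 genes of smallest p were named from other lists. One of these genes is not reported here. Alternatives changed background correction, signals, filters, probe choice, centring, slide, replicate block and mice. Array number limits the precision.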

Additional observations from a re-analysis of the deposited data

Results flagged for a closer look

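Within each genotype, the highest and lowest of the 5 mice were compared with their nearest neighbour over 146 groups of values, covering the measured members, the other named genes and the list means. In 5 of the 146 groups a mouse lay far from the other 4. Chance alone marks about 5% of groups, so the number flagged is no larger than chance gives.

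Igfbp2 in cKO mouse 5 was 0.64 (log2 ratio), where the other cKO mice had −0.31 to −0.09. Lmx1a in the same mouse was 1.5, against 0.57 to 0.75 in the other cKO mice. Slc4a5 in WT mouse 5 was −0.65, against −0.42 to −0.35 in the other WT mice, and Trpv4 there was −1.62, against −1.23 to −1.07. Lef1, of the thalamus and habenula list, was −0.39 in cKO mouse 1 and −0.78 to −0.70 in the other cKO mice. No cause was tested.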

How the results depend on the processing

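No member passed under any of 25 alternatives, and 21 of 28 members kept their sign in all of them. The members' median difference stayed between 0.30 and 0.61 and was 0.31 with array weights. Leaving out 1 mouse at a time gave 0.30 to 0.60, the lowest without cKO mouse 5. Without cKO mouse 5, 12 of 28 members kept their sign and moved by over 1.5 times. Processed signals moved 11 so and plain subtraction 10. Cox8b turned to −0.12 with plain background subtraction and −0.11 with processed signals, where Clic6 was −0.21 and Trpm3 −0.14. In Cy5 alone Prlr was −0.39, Ace −0.17 and Msx1 −0.12. With array weights Trpm3 was −0.042 and Msx1 −0.10. With slide as a fixed block, and within slide 2, Prlr was −0.015, Igf2 −0.056 and Tnnt1 −0.025. Leaving out 1 mouse at a time, Prlr ran from −0.0039 to 0.0782 and Msx1 from −0.064 to 0.094, negative for both without cKO mouse 5 and for Msx1 without WT mouse 5 (−0.027). The causes were not tested. Features passing numbered 0 with plain subtraction, all spots in the background fit, Cy5 alone and within slide 2, 2 when a gene's probes were averaged, and 1 to 2 when 1 mouse was left out (2 without cKO mouse 4). Map3k12 was −1.79 (limma adjusted p = 0.0582), −1.26 (0.971), −1.18 (0.102) and −1.81 (0.112) under the first 4 of these. The replicate block, for numbers that the labels do not call pairs, gave 1 feature, a median of 0.48 and Map3k12 at −1.41 (limma adjusted p = 0.0161). Features correlated with Ttr numbered 10 with Kcnj13 in its place and 11 in Cy5 alone, 6 of them members each time, and the median r was 0.41 with processed signals. Dim Cy5 spots limit Igf2, Lmx1a, Cldn1 and Cldn2, and Wfdc2 and Tmem72 were well above background on only 4 WT arrays. In Cy3, 12 of 28 members were well above background on all 10 arrays and 7 on under 5. These 7 were Col9a3 (0 arrays), Kcne2 and Lmx1a (1 each), F5 and Kl (2 each), and Wfdc2 and Cox8b (4 each). Their ratios rest on a reference signal near the floor.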
